A study of Homo sapiens with 16 samples.

Results

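RBM3 and CIRBP, the 2 cold-inducible RNA-binding proteins, were followed at the level of the gene, the transcript and the full-length transcript model after depletion of the splicing factor HNRNPH1. They were found by their gene symbols and are 2 of the 61906 genes, and 57 of the 251295 transcripts, in the deposited tables (RBM3 11 transcripts, CIRBP 46). The genes were chosen by measured values, their CPM and transcript shares with siHNRNPH1 against siNegative in each line, so every value of that contrast is given for them as a description, with no test. The cells were HEK-293T, an established human embryonic kidney line that expresses the large T antigen of SV40, and HT-1080, a human fibrosarcoma line. Both were grown at 37 °C and received small interfering RNA at 20 nM, which either targeted HNRNPH1 (siHNRNPH1) or was a control without a stated target (siNegative). RNA was taken 48 h later, and both groups of a line differed only in the siRNA, per the labels. Short-read RNA-seq gave 3 biological replicates in each of 4 groups, and full-length cDNA sequencing (IsoSeq) gave 1 pool per group. The labels name no cooled sample.

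Both proteins carry 1 RNA recognition motif followed by a glycine-rich tail, and both rise when mammalian cells are cooled mildly. RBM3 supports translation at low temperature and has been linked to the protection of synapses, while CIRBP binds messages such as that of CLOCK and modulates the circadian clock. RBM3 is known to be controlled through a poison exon between the third and the fourth exon, an exon whose inclusion sends the message to nonsense-mediated decay, and HNRNPH1 has been reported to promote the skipping of that exon. HNRNPH1 itself binds runs of G in RNA and steers splice site choice.

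Total expected counts were 107.7 to 121.0 M (mega) in HEK-293T libraries and 27.3 to 32.7 M in HT-1080 libraries, so counting error is lower in HEK-293T. Spread between replicates is separate, and for RBM3 and CIRBP with siHNRNPH1 it was larger in HEK-293T. Levels are in CPM, each count over its own library's total in M counts, and are not corrected for length. HNRNPH1 checks the siRNA: in HEK-293T it stood at 1107, 1105 and 1121 CPM with siNegative and at 234, 376 and 394 CPM with siHNRNPH1. In HT-1080 it stood at 635, 606 and 617 CPM against 231.5, 231.0 and 228.5 CPM, so it fell in both lines (log2 fold changes -1.76 and -1.49, edgeR adjusted p = 0.00939 and 6.76e-09). Of the markers listed for each line, 8 of 8 for HT-1080 and 4 of 7 for HEK-293T were higher in their own line, and KRT8, KRT18 and NEFL were higher in HT-1080. Replicate 1 of HEK-293T with siHNRNPH1 stood apart: its log2 CPM correlated with replicates 2 and 3 at a Pearson r of 0.946 and 0.941 across 16072 genes, against 0.999 between those 2 replicates. It also held the lowest HNRNPH1 level of its group. The gene-level changes of RBM3 and CIRBP and the counts of list calls in HEK-293T are given with and without it. Other values are given in this way only in part.

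RBM3 (ENSG00000102317.18) was the more strongly lowered of the pair. In HEK-293T the siNegative libraries held 476.9, 480.3 and 497.8 CPM and the siHNRNPH1 libraries 66.6, 79.6 and 83.9 CPM. Every siHNRNPH1 library lay far below every siNegative library, and the lowest value was that of replicate 1. The means were 485 ± 11.2 and 76.7 ± 9.02 CPM (SD, n = 3 each), so 15.8% of the control level was left, a log2 fold change of -2.69 (SE 0.13). Without replicate 1 the log2 fold change was -2.63. In HT-1080, RBM3 stood at 228.3, 260.0 and 225.9 CPM with siNegative and at 54.2, 55.3 and 53.9 CPM with siHNRNPH1. The groups were again apart, and the 3 depleted libraries agreed closely. The means were 238 ± 19.0 and 54.5 ± 0.754 CPM (SD, n = 3 each), 22.9% of control, with a log2 fold change of -2.20 (SE 0.06). Among genes whose mean count was 50 or more, ordered from the most negative fold change, RBM3 was number 4 of 16070 in HEK-293T and number 74 of 12909 in HT-1080.

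CIRBP (ENSG00000099622.14) was lowered strongly in HEK-293T and slightly in HT-1080. In HEK-293T it stood at 114.3, 116.3 and 115.8 CPM with siNegative and at 47.0, 34.3 and 32.6 CPM with siHNRNPH1. All depleted libraries lay below all controls, and replicate 1 was the highest of the depleted ones, opposite to its place for RBM3. The means were 115.5 ± 1.07 and 37.9 ± 7.86 CPM (SD, n = 3 each), 32.9% of control, and the log2 fold change was -1.62 (SE 0.20), or -1.84 without replicate 1. In HT-1080 the values were 90.5, 93.0 and 83.6 CPM with siNegative and 74.8, 79.1 and 76.7 CPM with siHNRNPH1. The groups did not overlap, but the gap between them was only a few CPM. The means were 89.0 ± 4.86 and 76.9 ± 2.19 CPM (SD, n = 3 each), 86.4% of control, with a log2 fold change of -0.28 (SE 0.05). CIRBP was number 114 of 16070 in HEK-293T and number 4021 of 12909 in HT-1080. Libraries that do not overlap were common: 21.0% of all genes tested in HEK-293T and 30.6% in HT-1080 had all 3 siHNRNPH1 libraries below all 3 controls, and 22.7% and 39.9% had them above, 43.7% and 70.5% in all. In RNA from whole cultures, fewer cells that express a gene and less RNA per cell cannot be told apart.

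**Figure D1:**
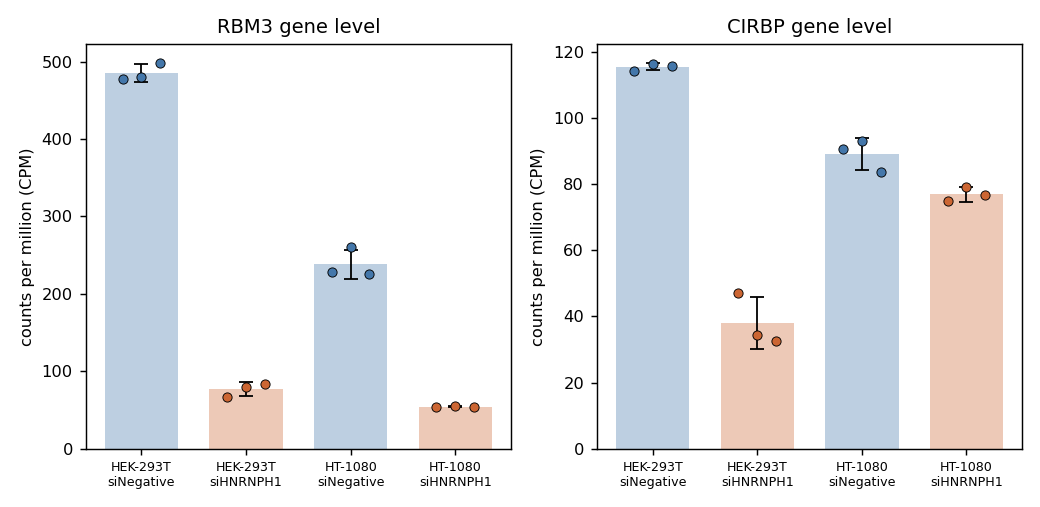
Level of RBM3 (left) and CIRBP (right) in CPM (vertical axis, from 0) in the 4 groups of short-read libraries. Points are libraries, bars are means and error bars are SD (n = 3). RBM3 was at 15.8% of its control level in HEK-293T and 22.9% in HT-1080, and CIRBP at 32.9% and 86.4%.

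The effect in HEK-293T minus the effect in HT-1080, from edgeR's fit of all 12 libraries, was -1.27 on the log2 scale (SE 0.22) for CIRBP and -0.42 (SE 0.12) for RBM3. It was -1.52 and -0.38 without HEK-293T siHNRNPH1 replicate 1. These are differences of the contrasts that chose the genes, so they are given with no test.

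The control lines gave a comparison that the choice of genes did not use. With siNegative, RBM3 was higher in HEK-293T than in HT-1080 by 0.77 on the log2 scale (SE 0.06, edgeR adjusted p = 1.12e-06), with 3 of 3 HEK-293T libraries above 3 of 3 HT-1080 libraries. CIRBP was higher by 0.12 (SE 0.05, edgeR adjusted p = 0.0425), close to the median of all genes tested, 0.10. That call for CIRBP was lost under DESeq2's size factors in edgeR, with a difference of 0.10 and an adjusted p of 0.0854. It was also lost without any 1 of the HEK-293T libraries or without HT-1080 replicate 3 (highest edgeR adjusted p = 0.140). In this comparison 86.6% of 19776 genes were called (45.8% higher and 40.8% lower in HEK-293T), and line and depth cannot be told apart. With scaling by library size alone the median of all genes moved to 0.36, and the differences were 1.03 for RBM3 and 0.38 for CIRBP. Relative to that median, RBM3 stayed higher and CIRBP stayed near it.

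The antisense gene CIRBP-AS1, which overlaps CIRBP on the other strand, moved the other way in HEK-293T. It stood at 5.53, 5.24 and 5.56 CPM with siNegative and at 20.15, 10.47 and 8.63 CPM with siHNRNPH1. Replicate 1 was the highest, and the log2 fold change of 1.26 did not pass the test (edgeR adjusted p = 0.0840). In HT-1080 its level was 0.70 to 1.16 CPM with siNegative and 0.83 to 1.65 CPM with siHNRNPH1, with overlapping groups. Whether the counting used strand is not given in the sources used here, so reads of CIRBP and CIRBP-AS1 may not have been separated fully, and the part of this in the CIRBP values was not tested. No IsoSeq model lay on the strand opposite to CIRBP in any of the 4 pools.

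The transcripts of RBM3 did not fall in proportion. Shares are a transcript's percent of the expected counts of its gene in a library, as estimated by RSEM from short reads, which can divide reads between similar transcripts imprecisely. The files name transcripts by identifier and give no structure for them. Named below are the transcripts with a mean share of at least 5% in any group, or a shift of at least 2 percentage points in the same direction in both lines.

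ENST00000376755.1 held the largest shift among the RBM3 transcripts in both lines. Its share in HEK-293T was 26.4%, 27.0% and 27.3% with siNegative and 2.60%, 4.29% and 4.97% with siHNRNPH1. In HT-1080 it was 23.1%, 24.1% and 25.1% against 10.3%, 11.7% and 9.67%. All depleted libraries of both lines lay below all of their controls by more than 10 points. The mean share in HEK-293T moved from 26.9 ± 0.42% to 3.95 ± 1.22%, and the one in HT-1080 from 24.1 ± 1.03% to 10.5 ± 1.03% (SD, n = 3 each), which are shifts of -22.9 and -13.6 percentage points. Shifts of at least that size occurred in 0.851% of transcripts in HEK-293T and 1.96% in HT-1080. These percentages cover transcripts with any count in the line, in genes whose mean count was 50 or more. The CPM of this transcript was 130 and then 3.11 in HEK-293T, and 57.4 and then 5.75 in HT-1080, log2 fold changes of -5.40 (SE 0.34) and -3.34 (SE 0.12). It accounted for 31.2% of the CPM that RBM3 lost in HEK-293T, and for 28.1% of the loss in HT-1080.

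The most abundant RBM3 transcript, ENST00000376759.8, kept its share or gained. It held 45.2%, 46.2% and 45.2% with siNegative and 47.3%, 48.5% and 48.7% with siHNRNPH1 in HEK-293T. In HT-1080 it held 36.8%, 29.3% and 34.7% against 41.1%, 38.2% and 38.3%. Depleted libraries lay above controls in both lines, by a small margin. Its CPM was nevertheless lower, at 37.0 against 221 in HEK-293T and 21.3 against 79.6 in HT-1080, log2 fold changes of -2.57 and -1.92.

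ENST00000466764.5 also gained share while its level was lower. Its share was 6.17%, 6.12% and 6.36% against 14.2%, 16.8% and 16.6% in HEK-293T, and 10.5%, 12.7% and 12.9% against 14.1%, 14.2% and 18.9% in HT-1080. The groups were apart in both lines, with the wider gap in HEK-293T. Its log2 fold changes were -1.29 and -1.77. ENST00000354480.2 held 11.3%, 9.99% and 10.4% against 30.1%, 19.5% and 19.9% in HEK-293T. Replicate 1 gave the highest of these, and the groups were apart with or without it. In HT-1080 the shares of 18.5%, 25.7% and 17.0% against 21.8%, 24.6% and 23.2% overlapped. ENST00000489344.5 lost share in both lines, with HEK-293T means of 3.68 ± 0.431% and 1.39 ± 0.083% and HT-1080 means of 7.19 ± 1.41% and 3.38 ± 1.31% (SD, n = 3 each), and no overlap in either.

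Outside the naming rule, and chosen after its values were seen, ENST00000472897.5 was almost absent after depletion in HEK-293T. It stood at 20.6, 18.5 and 18.4 CPM with siNegative and at 0.0874, 0.185 and 0.362 CPM with siHNRNPH1. In HT-1080 it was at most 1.08 CPM in every library of either group. ENST00000485213.1, also chosen after its values were seen, was the RBM3 transcript whose level stayed closest to its control in HT-1080, with means of 2.09 ± 0.786 and 2.07 ± 0.239 CPM (SD, n = 3 each), and its share there went from 0.895% to 3.80%.

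All 11 RBM3 transcripts passed the expression filter in HEK-293T and 8 did in HT-1080. The level of 10 of 11 was lower in HEK-293T with no overlap between the groups, and of 7 of 11 in HT-1080, and none was higher. Among transcripts with any count in genes with a mean count of 50 or more, 12.1% (HEK-293T) and 12.2% (HT-1080) were lower in this way. By share, 3 of 11 RBM3 transcripts were lower and 6 higher in HEK-293T, and 3 were lower and 4 higher in HT-1080. The background for shares that do not overlap was 20.1% in HEK-293T (11.1% lower, 9.03% higher) and 17.2% in HT-1080 (8.62% lower, 8.59% higher). These counts use the contrasts that chose the gene and are a description.

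CIRBP lost share mainly from its most abundant transcript. ENST00000320936.9 held 52.4%, 51.7% and 54.1% with siNegative and 34.0%, 39.5% and 40.0% with siHNRNPH1 in HEK-293T. In HT-1080 it held 43.8%, 45.6% and 43.3% against 29.3%, 30.6% and 34.0%. The groups were apart in both lines, and the lowest share in HEK-293T was again in replicate 1. The mean shifts were -14.9 percentage points in HEK-293T and -12.9 in HT-1080. So the share of this transcript moved about as far in HT-1080, where the gene kept 86.4% of its level, as in HEK-293T, where it kept 32.9%. Its CPM was 14.2 against 60.9 in HEK-293T (log2 fold change -2.07, SE 0.19) and 24.1 against 39.4 in HT-1080 (-0.73, SE 0.10).

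ENST00000587896.6 gained share in both lines. It held 9.51%, 10.9% and 11.8% against 17.5%, 17.1% and 14.3% in HEK-293T. In HT-1080 it held 18.4%, 17.5% and 19.4% against 31.2%, 19.7% and 24.1%, where the groups were apart by less than 1 point. Its level was lower in HEK-293T (log2 fold change -0.94, SE 0.31) and slightly higher in HT-1080 (0.20, SE 0.15). ENST00000586773.5 held 3.35%, 3.21% and 3.65% against 15.1%, 11.5% and 10.3% in HEK-293T, and 2.82%, 2.19% and 0.959% against 3.86%, 3.03% and 2.96% in HT-1080. Its level of 3.83, 3.73 and 4.23 CPM with siNegative and 7.11, 3.94 and 3.36 CPM with siHNRNPH1 overlapped in HEK-293T. The level was highest in replicate 1, without which the log2 fold change of 0.34 turned to -0.16.

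The other named CIRBP transcripts moved little in share. ENST00000589686.5 had HEK-293T means of 14.6% and 13.7%, with overlap, and HT-1080 means of 9.03% and 7.07%. ENST00000593093.5 went from 4.64% to 3.62% and from 5.50% to 4.32%. Both were lower in CPM in HEK-293T, with log2 fold changes of -1.68 and -2.01. Of 46 CIRBP transcripts, 17 passed the filter in HEK-293T and 21 in HT-1080. Of the 46, levels were lower with no overlap for 13 in HEK-293T, where 12.1% of all transcripts were lower and 10.4% higher in this way, and higher for 0. In HT-1080 they were lower for 6 and higher for 3, against 12.2% and 13.0% of all transcripts. Shares were lower for 4 and higher for 6 of 46 in HEK-293T, against 11.1% and 9.03% of all transcripts, and lower for 4 and higher for 7 of 46 in HT-1080, against 8.62% and 8.59%. Nothing is read from these counts.

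**Figure D2:**
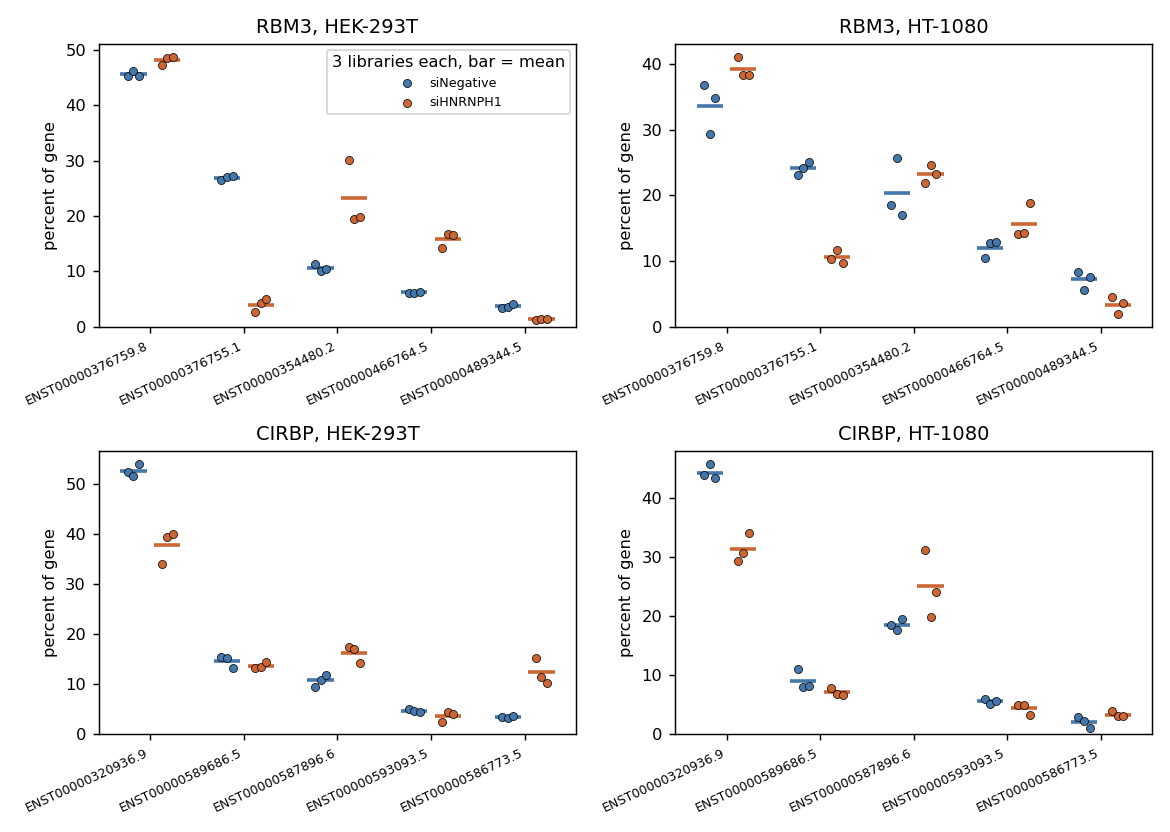
Percent of the gene's expected counts held by each named transcript (vertical axis) of RBM3 (top) and CIRBP (bottom) in HEK-293T (left) and HT-1080 (right). Points are libraries and horizontal bars are means (n = 3). ENST00000376755.1 of RBM3 had means of 26.9% and 3.95% in HEK-293T and of 24.1% and 10.5% in HT-1080, and ENST00000320936.9 of CIRBP lost 14.9 and 12.9 points.

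Between the control lines, a contrast the choice did not use, 6 of 11 RBM3 transcripts were higher in HEK-293T and 0 lower in edgeR's quasi-likelihood test over 85489 transcripts, where 53.7% were called (28.0% higher and 25.7% lower). ENST00000376759.8 was higher by 1.49 on the log2 scale (SE 0.05, edgeR adjusted p = 7.49e-06) and ENST00000376755.1 by 1.20 (SE 0.08, edgeR adjusted p = 0.000103), each in 3 of 3 libraries. ENST00000472897.5 differed most, by 4.79 (SE 0.49, edgeR adjusted p = 0.000571). ENST00000489344.5, ENST00000466764.5 and ENST00000354480.2 differed by 0.09, 0.08 and 0.07 and were not called. Of the 21 CIRBP transcripts tested, 5 were higher in HEK-293T and 9 lower. ENST00000320936.9 was higher by 0.64 (edgeR adjusted p = 0.0009) and ENST00000589686.5 by 1.09 (edgeR adjusted p = 0.00289). ENST00000587896.6 was lower, at -0.39 (edgeR adjusted p = 0.0234), a call that was lost when some single libraries were left out (highest adjusted p 0.0876).

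The IsoSeq models show which exon chains exist at the loci. Each model counts once, whatever its abundance, with 1 pool per group, so no test is given. Exact Clopper-Pearson 95% intervals treat models as independent draws and cover counting error only, not the spread between cultures. Sums over both lines mix the lines in unequal parts, so line and siRNA are not separated in them. Coordinates are those of the files, on GRCh38.p13 per the submitters' processing notes. RBM3, on the plus strand of chromosome X, had 4 models in HEK-293T siNegative, 7 in HEK-293T siHNRNPH1, 13 in HT-1080 siNegative and 4 in HT-1080 siHNRNPH1. The pools held 64705, 94847, 72186 and 68078 models in all. The reference chain, the most frequent one among the 17 siNegative models (3 of them), had 7 exons and 6 introns and was found in each pool.

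An exon lay inside the third intron of that chain, in the place where the literature puts the poison exon. The intron ran over chrX:48575668-48576313 (646 bases) and the inserted exon over chrX:48575815-48576083. The exon was 269 bases long, which left a remainder of 2 when divided by 3. The introns on its sides were 147 and 230 bases. Its sequence was not used here, so its stop codons and G runs were not examined.

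Models with the junction downstream of this exon numbered 0 of 4 with siNegative and 2 of 7 with siHNRNPH1 in HEK-293T. In HT-1080 they numbered 2 of 13 and 2 of 4. Over both lines they were 2 of 17 with siNegative (11.8%, interval 1.46 to 36.4%) and 4 of 11 with siHNRNPH1 (36.4%, interval 10.9 to 69.2%). HT-1080 gave 13 of these 17 models but only 4 of these 11. The share was higher with siHNRNPH1 in both lines, but in HT-1080 the count was 2 in each group and only the total differed, 13 and 4 models. The intervals were wide at this number of models and overlapped. Overlap of intervals is not a test, and a difference was not tested. In 1 of the 2 HT-1080 siHNRNPH1 models the part of the intron upstream of the exon was retained, while the other 5 of the 6 models carried both junctions. The exon was therefore also present in control HT-1080 cells.

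Models that spliced straight across the third intron numbered 2 of 4 and 1 of 7 in HEK-293T, and 6 of 13 and 1 of 4 in HT-1080 (siNegative first). Models that retained it whole numbered 2 of 4 and 4 of 7, and 5 of 13 and 1 of 4. The sixth intron was retained in 1 of 4 and 4 of 7 models in HEK-293T and in 2 of 13 and 2 of 4 in HT-1080, which is 3 of 17 with siNegative (17.6%, interval 3.80 to 43.4%) and 6 of 11 with siHNRNPH1 (54.5%, interval 23.4 to 83.3%). The fourth intron was retained in 0 of 17 siNegative models (interval up to 19.5%) and 2 of 11 siHNRNPH1 models (18.2%, interval 2.28 to 51.8%), and the fifth in 0 of 17 and 3 of 11 (27.3%, interval 6.02 to 61.0%). The second intron was retained in 2 of 17 and 3 of 11. The 2 models that retained the fourth intron, 1 in each siHNRNPH1 pool, had only 2 exons and retained the second to the sixth intron at once. They count under each of these introns, so the counts of separate introns are not independent. The intervals overlapped for each of these introns, which is not a test of a difference. At least 1 intron of the chain was retained in 9 of 17 siNegative models (52.9%, interval 27.8 to 77.0%) and 6 of 11 siHNRNPH1 models (54.5%, interval 23.4 to 83.3%). A start inside the first intron was found in 1 of 4, 2 of 7, 4 of 13 and 1 of 4 models, so it occurred in every pool.

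**Figure D3:**
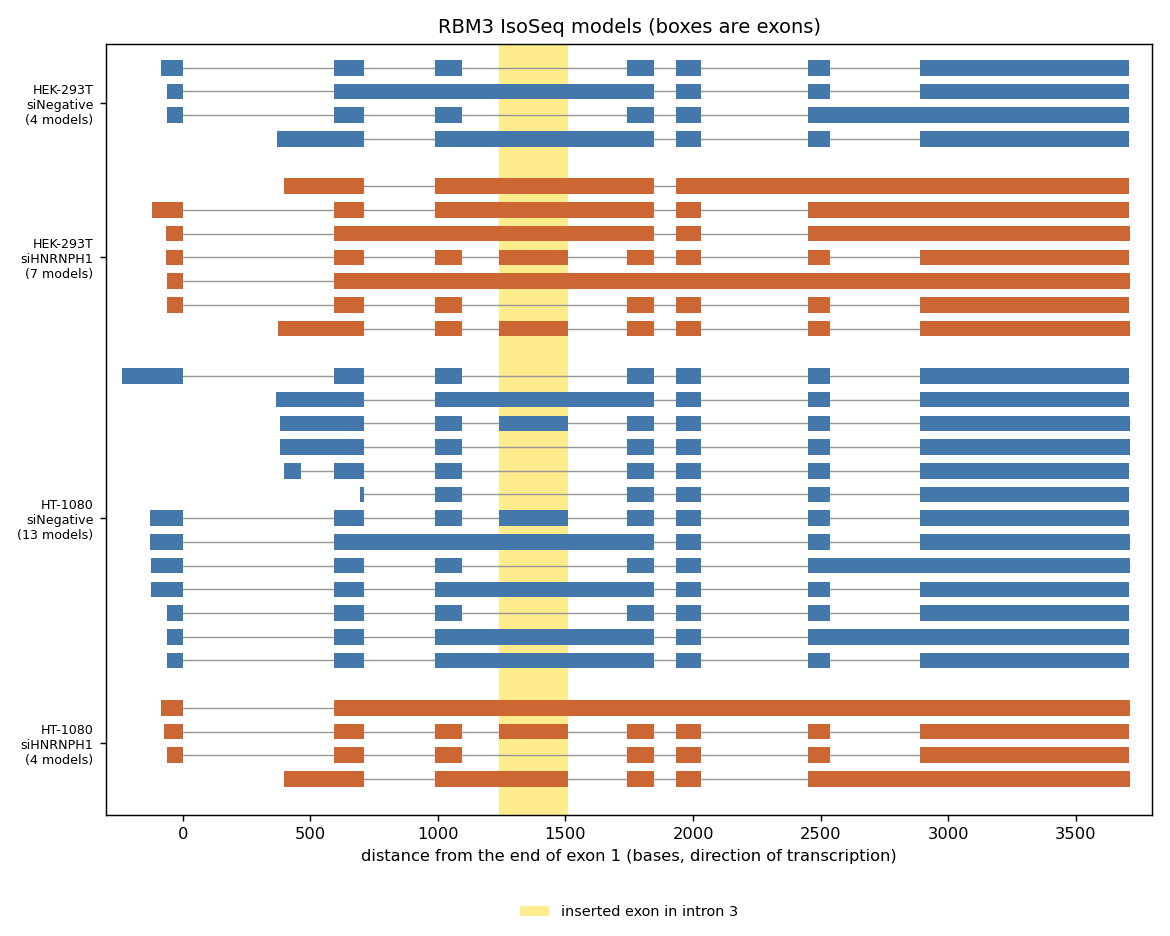
IsoSeq models at RBM3, 1 per row, with exons as boxes and introns as lines. The horizontal axis is the distance in bases from the end of exon 1, blue rows are siNegative and orange rows siHNRNPH1, and the shaded column is the inserted exon of 269 bases, whose downstream junction was in 2 of 17 siNegative and 4 of 11 siHNRNPH1 models.

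CIRBP, on the plus strand of chromosome 19, had 5, 6, 4 and 10 models in the same order of pools. Of 3 chains with equally many siNegative models, the one with the most introns (6) was taken as reference. No model carried an exon wholly inside one of its introns, so no candidate poison exon was seen in them. Exons within the span of a reference exon, such as the long sixth exon described below, could not be found in this way. An alternative start of exon 2, joined by the intron chr19:1269411-1270866, was in 2 of 9 siNegative models (22.2%, interval 2.81 to 60.0%) and 5 of 16 siHNRNPH1 models (31.2%, interval 11.0 to 58.7%). The models also differed in the sixth exon, which starts at position 1271981. In its long form it ran over chr19:1271981-1274440 (2460 bases), and in its short form it stopped at 1272051 after 71 bases. The long form, which is in the reference chain, holds the whole intron chr19:1272052-1272426 (375 bases) that most models with the short form removed. Retained introns are counted below for the reference chain only, so keeping this intron is left out of those counts.

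The short form was in 0 of 5 models with siNegative and 2 of 6 with siHNRNPH1 in HEK-293T, and in 1 of 4 and 4 of 10 in HT-1080. Over both lines it was in 1 of 9 siNegative models (11.1%, interval 0.281 to 48.2%) and 6 of 16 siHNRNPH1 models (37.5%, interval 15.2 to 64.6%). The share was higher with siHNRNPH1 in both lines, again with overlapping intervals. After the short form, 6 of the 7 models joined an exon that starts at 1272427, and 5 of those ended at 1273165 or 1273170, well before the end of the long form. At least 1 intron of the reference chain was retained in 5 of 9 siNegative models and 6 of 16 siHNRNPH1 models. The sixth intron (1274441 to 1274648) made up most of these, in 3 of 5 and 1 of 6 models in HEK-293T and in 2 of 4 and 4 of 10 in HT-1080. The third intron was retained in 1 model of each HEK-293T pool and in 0 models of HT-1080.

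**Figure D4:**
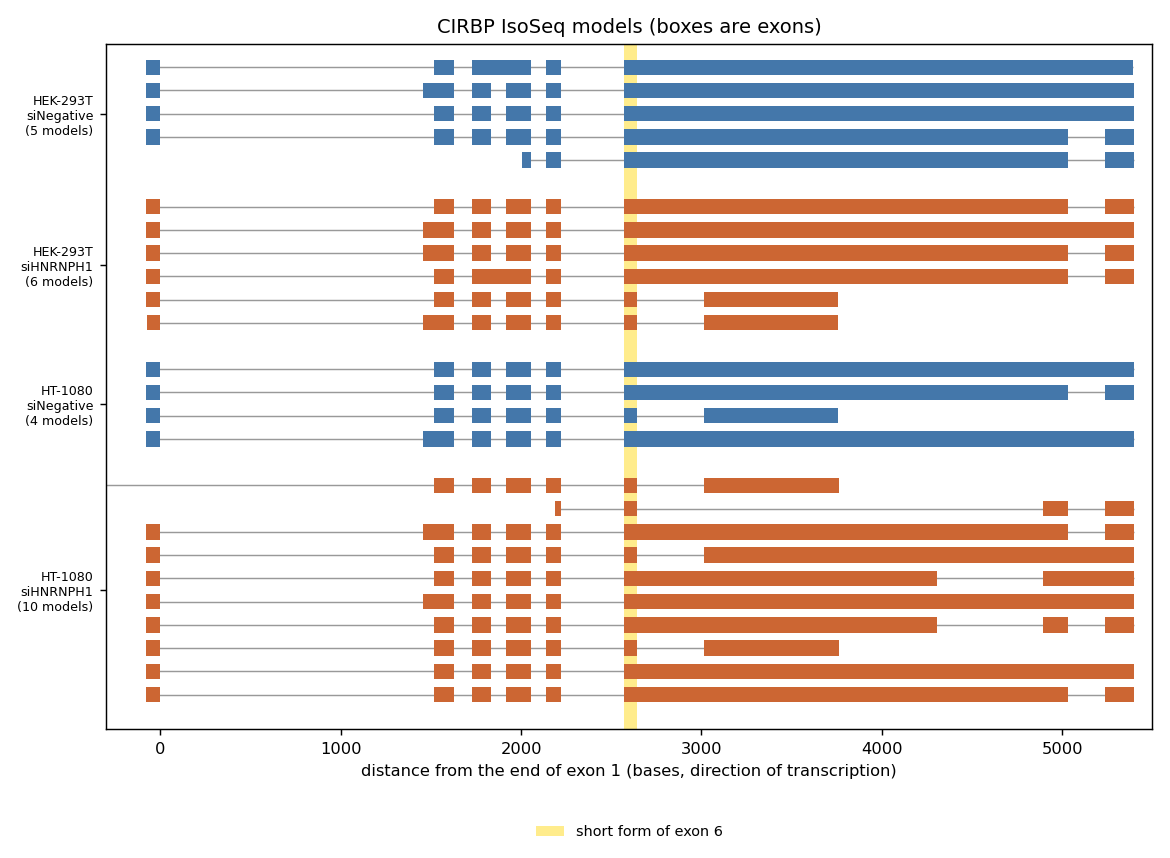
IsoSeq models at CIRBP, drawn as for RBM3, with the distance in bases from the end of exon 1 on the horizontal axis. The shaded column is the short form of exon 6 (71 bases), after which splicing occurred in 1 of 9 siNegative and 6 of 16 siHNRNPH1 models. The first HT-1080 siHNRNPH1 model starts beyond the left edge.

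The promoters of both genes were searched because both genes were lowered together. RefSeq sequences on GRCh38.p14, from 250 bases before to 50 after the start, were used for both, and a match is a description of letters only. The core of a heat shock element (GAANNTTC, searched on both strands), the site of heat shock factors, was in 6.77% of 35116 promoters. It occurred once for RBM3, starting 34 bases before the start, and not for CIRBP. The CCAAT box, a common promoter element bound by NF-Y, was in 34.6% of promoters, once for RBM3 and in 2 copies for CIRBP. The mild cold response element of CIRBP (TCCCCGCC) was in 8.52% of promoters and in neither window. The stretches with matches are shown in the direction of the plus strand, with the match in capitals, to let the windows be compared. The coordinates are chrX:48574439-48574468, chrX:48574406-48574435, chr19:1269152-1269181 and chr19:1269248-1269277, in the order below, and the last is a match on the reverse strand.
RBM3 heat shock element core: acgcgcaagggGAACGTTCcgggacgttct
RBM3 CCAAT: tgctggcctcagCCAATcagcacgcacgcc
CIRBP CCAAT: caaacgtctcggCCAATagtcgagcccgac
CIRBP CCAAT, reverse strand: gcgcgccctctgATTGGcccaggatgtgta

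Of the genes next to each locus, EBP beside RBM3 fell in HT-1080, and none was called lower in HEK-293T. At RBM3, the log2 fold changes (HEK-293T first) were 0.24 and -0.03 for TBC1D25, 0.40 and -0.74 for EBP, -0.18 and 0.33 for PORCN, and 0.29 and 0.40 for WDR13. At CIRBP they were 0.46 and 1.06 for MIDN, 1.22 and 0.14 for ATP5F1D, and 1.00 and -0.01 for FAM174C. In HEK-293T with siHNRNPH1, replicate 1 stood above replicates 2 and 3 for EBP (165 against 77.0 and 76.8 CPM). The same held for WDR13 (47.7 against 30.5 and 27.2 CPM), ATP5F1D (71.6 against 27.9 and 23.4 CPM) and FAM174C (46.6 against 17.6 and 13.6 CPM). Fold changes of the neighbours without replicate 1 are not given. None of the neighbours named above was called in HEK-293T in edgeR. In HT-1080 EBP was called lower (edgeR adjusted p = 9.98e-05), and PORCN, WDR13 and MIDN were called higher. EFNA2 was tested in HEK-293T only (0.03), and the pseudogenes MRPL32P1, VN1R110P and RPS15P9 were in neither test.

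Genes whose pattern was most like that of RBM3, by Pearson r of log2(CPM + 1) centred within each line over the 12 libraries and 12172 genes, were MOCS2 (0.999), SNX24 (0.997), SFXN2 (0.997), SLC35A5 (0.995) and TDP2 (0.994). For CIRBP they were CRAT (0.991), TMEM101 (0.991), OBSL1 (0.990), ABHD14B (0.989) and PCCB (0.988). RBM3 and CIRBP resembled each other less, with r = 0.827, where CIRBP was number 805 in the order for RBM3. All these values share libraries, so they mostly repeat the split between the siRNAs.

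Lists of genes around the pair were then read in each line, with edgeR adjusted p-values over all genes. In HEK-293T 10.0% of 19966 genes were called (5.12% higher, 4.88% lower). In HT-1080 65.3% of 16145 were (32.7% higher, 32.6% lower), so calls are far more common in HT-1080. Regulators of the cold response (15 genes: kinases of splicing, heat shock factors, channels and signalling proteins) had 1 higher and 3 lower of 15 in HEK-293T and 1 higher and 7 lower of 14 in HT-1080, with medians of -0.17 and -0.14. The kinase CLK2, which phosphorylates splicing factors, fell in both lines, from 89.0, 83.6 and 87.2 to 38.5, 39.7 and 38.5 CPM in HEK-293T (log2 fold change -1.18, edgeR adjusted p = 0.00611) and by 0.50 on the log2 scale in HT-1080 (edgeR adjusted p = 9.4e-06). PLCG1, a phospholipase downstream of the receptor NTRK2, had log2 fold changes of -0.79 and -0.24, both called. CLK1 and CLK4, whose activity rises as temperature falls, had log2 fold changes of -0.04 and -0.17 in HEK-293T and 0.06 and -0.15 in HT-1080 and were not called.

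Messages and proteins that RBM3 or CIRBP is known to bind (12 genes) had 0 of 12 called in HEK-293T in edgeR or DESeq2, and 0 at an unadjusted p under 0.05. In HT-1080 2 rose and 7 fell, and the medians were 0.06 and -0.33. CLOCK, a known message bound by CIRBP, stood at 55.1, 55.0 and 55.3 CPM with siNegative and at 25.9, 76.6 and 79.0 CPM with siHNRNPH1 in HEK-293T. Only replicate 1 was below the controls, and CLOCK was not called in either line. Without replicate 1 it was called higher in HEK-293T, with a log2 fold change of 0.44 (edgeR adjusted p = 1.60e-10). Circadian clock genes had 2 higher and 3 lower of 19 in HEK-293T and 8 higher and 6 lower of 18 in HT-1080. ARNTL, the partner of CLOCK, rose in both lines (1.02 and 0.32 on the log2 scale), as did the repressor NR1D1 (1.03 and 1.48). NR1D2 (-1.60 and -0.66), CRY2 (-0.54 and -0.69) and CSNK1E (-0.63 and -0.15) fell in both.

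Relatives with an RNA recognition motif and a glycine-rich region had 0 of 9 called in HEK-293T in edgeR or DESeq2, with 0 at an unadjusted p under 0.05, and 0 higher and 7 lower of 9 in HT-1080, with medians of -0.23 and -0.67. RNA-binding proteins with poison exons of their own had 0 of 22 called in HEK-293T in edgeR or DESeq2, with 2 at an unadjusted p under 0.05, and 1 higher and 18 lower in HT-1080, with medians of -0.19 and -0.38. Heat shock genes had 4 higher and 0 lower of 16 in HEK-293T and 2 higher and 7 lower in HT-1080. HSPB8 rose in both lines (1.13 and 0.56), as did HSPA1A (1.29 and 0.23), whose reads are shared with its near copy HSPA1B and are uncertain. HSPA6, an inducible chaperone, moved in opposite directions, 1.62 and -1.33. The medians of all genes tested were 0.02 and 0.01. The difference between the lines, tested as an interaction of line and siRNA in edgeR on all 12 libraries, was called for 35 of the 92 listed genes tested, 24 with a higher and 11 with a lower effect in HEK-293T. Over all 21276 genes 19.0% were called, 10.8% with a higher and 8.13% with a lower effect. Without HEK-293T siHNRNPH1 replicate 1, 9535 of 19447 genes were called in that test, against 4034 of 21276 with it. The interaction count for the listed genes without that replicate is not given.

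The HEK-293T calls depend on single libraries. Without any 1 of the siNegative libraries, 0 listed genes were called in edgeR, with 14 or 15 at an unadjusted p under 0.05, so each HEK-293T call named above was lost. Without siHNRNPH1 replicate 1, 61.8% of 20329 genes were called, and the higher and lower calls became 5 and 7 for the cold regulators, 2 and 5 for the bound messages, 5 and 8 for the clock, 0 and 6 for the relatives, 8 and 4 for heat shock and 1 and 20 for the poison exon genes.

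**Figure D5:**
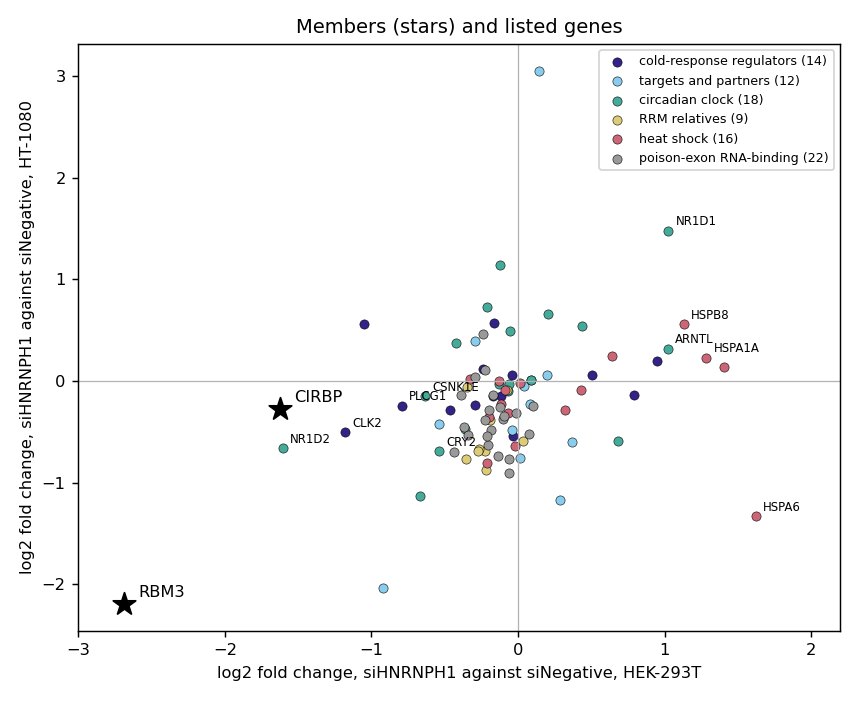
Log2 fold change with siHNRNPH1 in HEK-293T (horizontal) and HT-1080 (vertical) for the listed genes tested in both lines (points, coloured by list, with number of genes) and for RBM3 and CIRBP (stars). RBM3 lies at -2.69 and -2.20 and CIRBP at -1.62 and -0.28.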

How the data were processed

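The authors deposited RSEM's expected counts for each transcript, per the labels, in 1 table per line. The notes name build GRCh38.p13, but RSEM's version, aligner, trimming and strand setting are not given in the sources used here. IsoSeq files list exon positions of collapsed models, per the file headers and names, with no read counts. Columns were matched through the labels and 0 were left unmatched. Counts were summed per gene, rounded, filtered with filterByExpr, scaled by TMM and tested in edgeR 4.0.16 (quasi-likelihood, robust, two-sided, adjusted p under 0.05 over all genes or transcripts), with SE from the F statistic, in R 4.3.3. Each line was fitted on its 6 libraries, control lines on 6, the interaction on 12 (tested for listed genes only, since the members were chosen on both effects), and the steps were tested on simulated data. The simulation gave every gene the same spread and held no library that stood apart. It therefore does not cover a case such as HEK-293T siHNRNPH1 replicate 1. The labels state 3 biological replicates. Named list genes were up to 3 per list and direction called in both lines; neighbours were 3 per side. DESeq2 1.42.0, other scalings, no filter, a replicate block and left-out libraries were alternatives. Members and lists were chosen with earlier results of these data known.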

Additional observations from a re-analysis of the deposited data

Results flagged for a closer look

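Among the 10 listed genes named because they were called in both lines, the effect of siHNRNPH1 differed between the lines for 6 by the edgeR interaction test. Values are the effect in HEK-293T minus that in HT-1080, on the log2 scale. CLK2 differed by -0.6059, PLCG1 by -0.4783 and CSNK1E by -0.4117, with adjusted p-values of 0.00338, 0.0208 and 0.0251 in edgeR. ARNTL differed by 0.7712, HSPA1A by 1.133 and HSPA6 by 3.039, with adjusted p-values of 0.0145, 0.000447 and 0.000672 in edgeR. Without HEK-293T siHNRNPH1 replicate 1 these 6 stayed called. CRY2, HSPB8, NR1D1 and NR1D2 were then called too (edgeR adjusted p = 0.0452, 0.0110, 2.97e-05 and 9.11e-06). Which of the 10 genes were called thus depended on that library. HSPA6 was higher with siHNRNPH1 in HEK-293T and lower in HT-1080. It was named because its calls went in opposite directions in these same libraries, so its interaction call adds little to that.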

How the results depend on the processing

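RBM3 and CIRBP were lower with siHNRNPH1 in both lines under every alternative run. The CIRBP log2 fold change in HEK-293T ranged from -1.84 to -1.52 as single libraries were left out, and in HT-1080 it was -0.21 with library size alone. The control-line difference of CIRBP lost its call under DESeq2's size factors (0.10) and in some leave-one-out fits, which ranged from 0.0944 to 0.176. The effect in HEK-293T minus that in HT-1080, given with no test, was -0.53 for RBM3 with library size alone and -0.43 under the replicate block. Its leave-one-out values ranged from -0.49 to -0.38 for RBM3 and from -1.52 to -1.14 for CIRBP. Listed genes called in HEK-293T numbered 13, ranged from 0 to 70 as single libraries were left out, and were 22 in a fit of all 12 libraries. The replicate block gave 0 in edgeR, with 15 at an unadjusted p under 0.05. Over all genes, HEK-293T calls were 1997, but 20, 0 and 0 without siNegative replicate 1, 2 or 3, 12557 without siHNRNPH1 replicate 1, and 0 under the block. Same-numbered deviations from the group means correlated at 0.104, 0.110 and 0.028 in HEK-293T and 0.039, 0.127 and 0.063 in HT-1080. These values cannot decide whether the numbers pair the libraries, since each group was centred over only 3 libraries. The control-line difference of ENST00000489344.5 reversed to -0.019 without HEK-293T siNegative replicate 3 (leave-one-out range to 0.237), and that of ENST00000354480.2 to -0.031 without HT-1080 siNegative replicate 3 (range to 0.429); neither was called. The causes of these changes were not tested. IsoSeq pools of 4 to 13 models limit any share at these loci.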
